A study of Heterocephalus glaber with 23 samples.

Results

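The genes described here are 31 genes of mitochondrial fatty acid oxidation and ketone body metabolism, followed in liver of the naked mole-rat (Heterocephalus glaber). They were chosen by name for their place in the pathway, with earlier results of these data known. Of the 31 genes, 30 had a row in the count table of 16339 genes, and no row was found under the name PDK4. SLC25A20, the carrier that moves acylcarnitines across the inner mitochondrial membrane, had under 3 counts in every library and could not be tested. The other 29 were among the 12306 genes that entered the tests. By role they are 7 genes of activation and the carnitine shuttle, 5 acyl-CoA dehydrogenases, 5 genes of the hydratase, dehydrogenase and thiolase steps, 3 genes for unsaturated fatty acids, 3 of electron transfer, 3 of ketone bodies and 3 regulators.

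Long-chain fatty acids are joined to coenzyme A, passed to carnitine to enter the mitochondrion and then shortened by repeated cycles of dehydrogenation, hydration, dehydrogenation and thiolytic cleavage. Electrons of the first step reach the respiratory chain through the electron transfer flavoprotein. In fasting, liver turns much of the acetyl-CoA so formed into ketone bodies for other organs, and the receptor PPARA with its coactivator PPARGC1A is known in mice to switch on many of these genes.

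Naked mole-rats live in colonies in which a queen and her male partners breed and the other adults, called workers or non-breeders, do not. Liver RNA was sequenced from 6 female breeders of 3.3 to 3.7 years, 5 female non-breeders of 2.4 to 4.0 years, 6 male breeders of 2.8 to 4.1 years and 6 male non-breeders of 2.7 to 4.1 years, each library from an animal with its own number. Breeders had been taken from their colony and paired with an unrelated partner, while the non-breeders were litter siblings that stayed behind, so that housing and status cannot be told apart. Tissue of male breeders was taken within days of a litter's birth, that of female breeders only weeks after pregnancy had ended, so that sampling time and sex cannot be told apart among breeders.

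Library totals lay between 11826665 and 22969366 counts. Levels are given as counts relative to the scaled library total (CPM). They are not adjusted for transcript length, so that levels were compared between libraries and not between genes. All 7 hepatocyte markers were detected, with sums between 104377 and 222598 CPM. Marker sums of other cell types differed between libraries. Striated muscle markers summed to 170 and 153 CPM in female breeders 2 and 6, against 21.6 to 41.6 CPM in the other 21 libraries. Neutrophil, erythroid, cholangiocyte and adipocyte markers were highest of all libraries in male non-breeder 3, at 262, 873, 332 and 64.0 CPM. Female breeder 6, male breeder 5 and male non-breeder 3 were known to stand apart from earlier results of these data, and results that changed without them are given. By the study's list of libraries, reads were shorter in all 6 female breeders and in male breeders 1, 2 and 3, and longer in the other 14 libraries, so that read length and status cannot be told apart among females. In RNA from whole liver, fewer cells of a type and less RNA per cell cannot be told apart.

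The 30 genes with a row, SLC25A20 among them, together took 1.07% ± 0.146 of the counts in female breeders (SD, n = 6) and 1.07% ± 0.117 in female non-breeders (SD, n = 5). They took 1.06% ± 0.155 in male breeders and 0.966% ± 0.147 in male non-breeders (SD, n = 6 each). These shares overlapped between breeders and non-breeders in both sexes. The heat map gives the level of every tested gene of the pathway in every library.

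**Figure D1:**
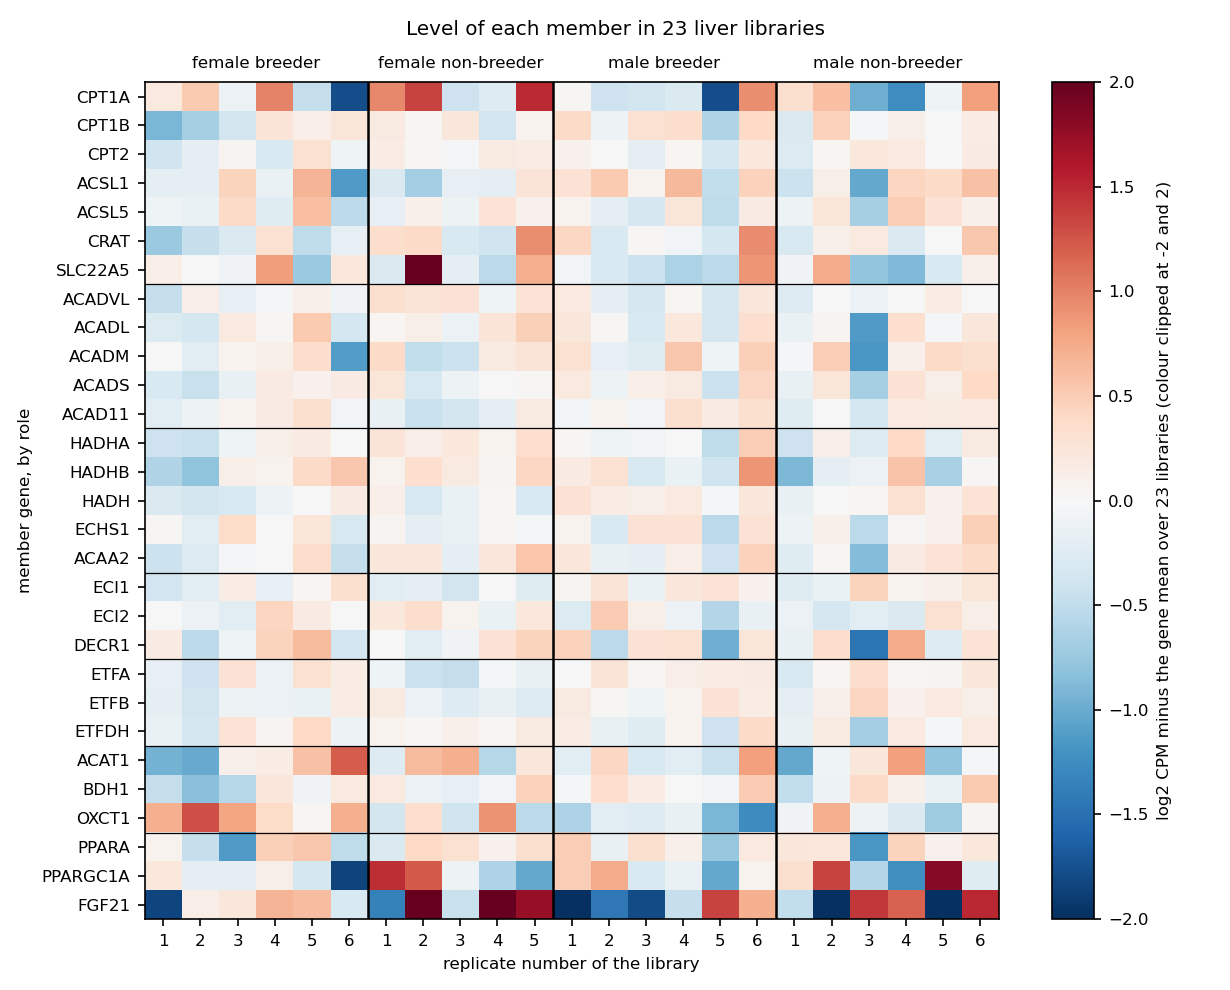
Each cell is the log2 CPM of a gene in a library minus that gene's mean over 23 libraries, with genes in rows by role and libraries in columns by group, and colours clipped at -2 and 2. Male non-breeder 3 held the lowest level of 9 of the 29 genes, and FGF21, PPARGC1A and CPT1A varied most strongly within the groups.

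The study asked what becoming a breeder changes in each sex. Among females, 0 of the 29 genes passed the threshold (edgeR quasi-likelihood test, Benjamini-Hochberg adjusted p under 0.05), where 0% of all tested genes did. Without adjustment, 4 of the 29 had p under 0.05, 1 higher and 3 lower in female breeders, against 3.7% of all tested genes, 1.96% higher and 1.74% lower. The log2 fold change was below 0 for 22 of the 29 genes and for 47.9% of all tested genes, with a median of -0.09 over the 29 and 0.01 over all. Among males, 0 of the 29 passed, again with 0% of all tested genes, and 0 had an unadjusted p under 0.05, against 5.88% of all tested genes. Here 9 of the 29 and 53.4% of all tested genes were below 0, with medians of 0.02 and -0.02. When each library was left out in turn, the count below 0 was 16 to 22 in females and 7 to 19 in males. In males it was 19, with a median of -0.06, without male breeder 6, and 18 without male non-breeder 1 or male non-breeder 3, with medians of -0.02 and -0.04.

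Averaged over both sexes, 0 of the 29 passed (0% of all tested genes) and 1 had an unadjusted p under 0.05, lower in breeders (7.94% of all tested genes in either direction, 3.69% lower). Here 20 of the 29 were below 0, and 51.3% of all tested genes, with medians of -0.03 and -0.005. The status difference was then compared between the sexes, as that of females minus that of males. Of the 29, 0 passed (0% of all tested genes) and 1 had an unadjusted p under 0.05 (1.85% of all tested genes, 1.4% higher), while 20 of the 29 were below 0 (47.1% of all tested genes). DESeq2 and limma voom also called 0 of these genes in each of the 4 status comparisons. No gene had breeders and non-breeders without overlap in either sex, where 0.309% of all tested genes had none in females and 0.431% in males.

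**Figure D2:**
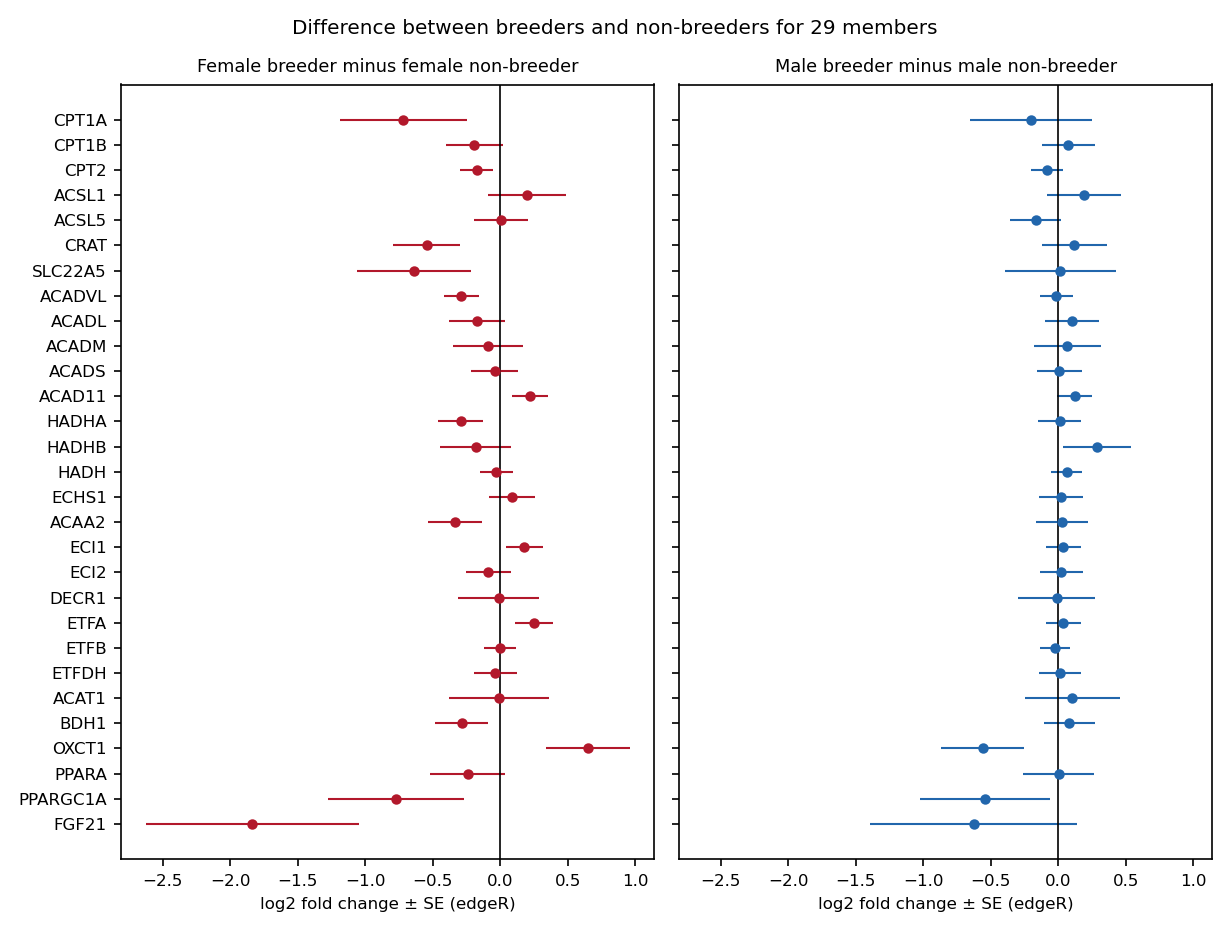
Log2 fold changes of 29 genes with their standard error (edgeR), female breeder minus female non-breeder on the left and male breeder minus male non-breeder on the right. In females 22 of 29 points lie below 0 and in males 9 of 29 (7 to 19 when each library was left out), and 0 of them passed the threshold in either sex.

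The first group of genes prepares fatty acids and carries them into the mitochondrion. CPT1A, the liver form of the enzyme that loads long-chain fatty acids onto carnitine and sets the pace of their entry, ranged between 58.6 and 569 CPM over the 23 libraries. It had a lowest, median and highest level of 58.6, 208 and 399 CPM in female breeders, against 151, 168, 392, 512 and 569 CPM in female non-breeders. Of the female non-breeders, 2 were low and 3 high, and female breeders overlapped both. Its log2 fold change was -0.72 ± 0.47 (SE; adjusted p = 1.00). Male breeders had 58.6, 161 and 385 CPM as lowest, median and highest level, against 84.9, 221 and 355 CPM in male non-breeders. These ranges nearly coincided, with a log2 fold change of -0.20 ± 0.45 (adjusted p = 1.00).

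CPT1B, the muscle form of the same enzyme, had 18.9, 33.3 and 42.7 CPM as lowest, median and highest level in female breeders, against 27.3, 36.6, 37.2, 40.2 and 41.8 CPM in female non-breeders. Male breeders had 23.5, 44.5 and 46.7 CPM, against 29.05, 37.3 and 49.0 CPM in male non-breeders. The groups overlapped in both sexes. Female breeders 2 and 6, with the highest sums of striated muscle markers, had 22.3 and 41.9 CPM of CPT1B, near opposite ends of their group.

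CRAT, which moves acetyl groups between coenzyme A and carnitine, was 1 of the 3 genes with a lower level in female breeders at an unadjusted p under 0.05. Its lowest, median and highest level was 131, 168 and 270.0 CPM in female breeders, against 166, 177, 278, 285 and 414 CPM in female non-breeders. The groups overlapped at their lower ends, and the upper end of female non-breeders lay higher. The log2 fold change was -0.55 ± 0.25 (adjusted p = 1.00), and -0.33 without female non-breeder 5. In males the lowest, median and highest levels of CRAT were 171, 215 and 419.6 CPM in breeders, against 176, 226 and 316 CPM in non-breeders, with a log2 fold change of 0.12 ± 0.24 (adjusted p = 1.00). The difference between the sexes in the status difference was -0.67 ± 0.35 (adjusted p = 1.00).

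The other 4 genes of this role that were tested, CPT2, which returns fatty acids to coenzyme A inside the mitochondrion, the acyl-CoA synthetases ACSL1 and ACSL5, and the carnitine transporter SLC22A5, had log2 fold changes between -0.64 and 0.20 in females and between -0.17 and 0.19 in males. Their standard errors reached from 0.12 for CPT2 to 0.42 for SLC22A5. A level of 31.0 CPM in female non-breeder 2 set SLC22A5 apart in that library, where the other 22 libraries had between 3.67 and 12.8 CPM. Of the 7 shuttle genes together, 5 were below 0 in females and 3 in males.

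The acyl-CoA dehydrogenases take the first step of each cycle and differ in the chain length they prefer. ACADVL, for very long chains, had a lowest, median and highest level of 154, 209 and 236 CPM in female breeders, against 203, 258, 261, 264 and 269 CPM in female non-breeders. All 6 female breeders lay below 4 of the 5 female non-breeders, and female non-breeder 4 lay within the range of the breeders. In log2 terms the difference was -0.29 ± 0.13 (unadjusted p = 0.0344, adjusted p = 1.00). Male breeders and male non-breeders covered each other at 169.8, 206 and 251 CPM against 180.4, 215 and 239 CPM (log2 fold change -0.01 ± 0.12, adjusted p = 1.00). In females, status and read length cannot be told apart for ACADVL. With read length as a covariate, its log2 fold change was -0.21. Only male breeders held both read lengths, so that this covariate was estimated within them and carried over to females.

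ACADL, for long chains, had 102, 120.2 and 187 CPM as lowest, median and highest level in female breeders, against 121, 134, 141, 157 and 181 CPM in female non-breeders. In males these were 103, 142 and 164 CPM in breeders, against 59.6, 131 and 164 CPM in non-breeders. The groups overlapped, and the value of 59.6 CPM was that of male non-breeder 3 alone. ACADM and ACADS, for medium and short chains, and ACAD11, a more recently described member of the family, had log2 fold changes between -0.09 and 0.22 in females and between 0.01 and 0.12 in males.

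The next steps are run by the trifunctional protein, whose subunits are HADHA and HADHB, and by soluble enzymes for shorter chains. HADHA had 197, 261 and 302 CPM as lowest, median and highest level in female breeders, against 284, 295, 313, 320.4 and 339.5 CPM in female non-breeders. The breeders lay mostly lower but overlapped, with a log2 fold change of -0.30 ± 0.16 (adjusted p = 1.00). Male breeders had 189, 264 and 378 CPM, against 201, 263 and 355 CPM in male non-breeders, and the medians were near equal.

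HADHB had 111, 207 and 283 CPM in female breeders, against 201, 203, 219, 244 and 258 CPM in female non-breeders, so that the breeders spread to both sides. In males it had 146, 197 and 358 CPM in breeders, against 104, 174 and 288 CPM in non-breeders. Its log2 fold change in males was 0.29 ± 0.25 (adjusted p = 1.00), the second smallest p of the 29 genes in that comparison, and 0.08 without male breeder 6. The spans of HADHA and HADHB from start to end overlap in the RefSeq table used for names. Whether they share exons was not examined. The libraries did not mark strand, so that reads of any shared exon could not be told apart.

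HADH, the dehydrogenase for short chains, ECHS1, the hydratase, and ACAA2, the thiolase that releases acetyl-CoA, had log2 fold changes between -0.34 and 0.08 in females and between 0.02 and 0.06 in males. ECI1, ECI2 and DECR1, which act on the double bonds of unsaturated fatty acids, lay between -0.09 and 0.18 in females and between -0.01 and 0.04 in males. The subunits ETFA and ETFB of the electron transfer flavoprotein and the oxidoreductase ETFDH, which hands its electrons to ubiquinone, lay between -0.04 and 0.25 in females and between -0.03 and 0.04 in males. In males, the log2 fold changes of these 9 genes thus lay close to 0, and the widest 95% interval among them was that of DECR1, at -0.60 to 0.58.

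Among the genes of ketone bodies, ACAT1 joins acetyl-CoA units and BDH1 interconverts the main ketone bodies. BDH1 had 135, 200.4 and 281 CPM as lowest, median and highest level in female breeders, against 215, 222, 231, 276 and 333 CPM in female non-breeders. In males it had 233, 254 and 344 CPM in breeders, against 171, 242 and 347 CPM in non-breeders. The median was lower in breeders than in non-breeders in females and higher in males, with log2 fold changes of -0.29 ± 0.20 and 0.08 ± 0.19 (adjusted p = 1.00 each), and the difference between the sexes was -0.37 ± 0.27 (adjusted p = 1.00). ACAT1 covered a 4.68-fold range over the 23 libraries, between 521 and 2438 CPM, and its log2 fold changes were -0.01 ± 0.37 in females and 0.10 ± 0.36 in males.

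OXCT1 encodes the enzyme by which other organs use ketone bodies, and it is known to be nearly silent in hepatocytes of mice. It was detected in all 23 libraries with between 10 and 65 counts each. Its lowest, median and highest level was 1.64, 2.70 and 4.06 CPM in female breeders, against 1.06, 1.19, 1.21, 2.06 and 3.08 CPM in female non-breeders. All 6 female breeders lay above 3 of the 5 female non-breeders and overlapped the other 2. For OXCT1 in females the log2 fold change was 0.65 ± 0.31 (unadjusted p = 0.0495, adjusted p = 1.00), and 0.27 with read length as a covariate. That covariate was estimated within male breeders alone. In the same comparison 47.9% of all tested genes were below 0. Above 0 were 5 of 6 cholangiocyte, 5 of 11 macrophage, 4 of 9 stellate cell and fibroblast and 4 of 10 endothelial markers. The same held for 3 of 7 lymphocyte, 2 of 6 adipocyte, 1 of 7 hepatocyte, 0 of 6 neutrophil and 0 of 5 erythroid markers. All 8 tested markers of striated muscle were above 0 there, 2 with an unadjusted p under 0.05 and 0 past the threshold. Their summed level was 21.6 to 170 CPM in female breeders, against 22.9 to 33.7 CPM in female non-breeders. Female breeder 2 held the highest sum and the highest OXCT1, and the log2 fold change without it was 0.49. Female breeder 6, with the next highest sum of 153 CPM, had OXCT1 near the group median of 2.70 CPM. The part of muscle RNA in this difference was not tested.

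In males, OXCT1 lay the other way round, at 0.595, 1.15 and 1.43 CPM in breeders, against 0.925, 1.497 and 2.69 CPM in non-breeders (log2 fold change -0.56 ± 0.31, adjusted p = 0.883). This was the smallest p of the 29 genes in males, and the log2 fold change was -0.34 without male non-breeder 2. Markers of several other cell types were mostly below 0 in the same comparison, with 0 past the threshold. Below 0 were also 6 of 7 hepatocyte, 4 of 8 striated muscle and 3 of 6 adipocyte markers, beside 53.4% of all tested genes. The same held for 5 of 5 erythroid, 5 of 6 cholangiocyte and 4 of 7 lymphocyte markers. It also held for 5 of 6 neutrophil markers, 3 with an unadjusted p under 0.05. Of the stellate cell and fibroblast markers, 9 of 9 were below 0, 3 with an unadjusted p under 0.05, with sums of 91.9 to 129.6 CPM in male breeders, against 123 to 197 CPM in male non-breeders. Of the endothelial markers, 10 of 10 were below 0, with sums of 436 to 595 CPM in male breeders, against 414 to 726 CPM in male non-breeders. Of the macrophage markers, 10 of 11 were below 0, 3 with such a p, with sums of 258 to 576 CPM in male breeders, against 422 to 682 CPM in male non-breeders. The sums overlapped in each list, and the part of these cells was not tested. Set against each other, the status differences were 1.21 ± 0.44 apart, females minus males (unadjusted p = 0.0114, adjusted p = 1.00), and it lay between 0.99 and 1.52 when each library was left out in turn.

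Among the regulators, FGF21 and PPARGC1A had the largest status differences of the 29 genes in females and the largest spread within groups. FGF21, a hormone that liver releases in fasting, had 1.11, 4.84 and 6.91 CPM as lowest, median and highest level in female breeders, against 1.59, 3.08, 14.5, 31.4 and 32.2 CPM in female non-breeders. Of the 5 female non-breeders, 3 lay above every female breeder and 2 lay among them. For FGF21 in females the log2 fold change was -1.84 ± 0.79 (unadjusted p = 0.0293, adjusted p = 1.00).

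In males, FGF21 had 0.831, 2.29 and 11.1 CPM in breeders, against 0.640, 6.39 and 12.3 CPM in non-breeders, which overlapped over nearly their whole range (log2 fold change -0.63 ± 0.77, adjusted p = 1.00). It was -1.21 without male breeder 5 and -0.33 without male non-breeder 6, the lowest and the highest value with a library left out. Averaged over both sexes it was -1.23 ± 0.55 (unadjusted p = 0.035, adjusted p = 0.569). Within male breeders, FGF21 was at 0.831, 1.51 and 1.14 CPM in the 3 libraries of shorter reads and at 3.06, 11.1 and 7.02 CPM in the 3 of longer reads. How many of all tested genes separate by read length in this way was not counted. With read length as a covariate, the log2 fold change turned to 0.77 in females, 0.16 in males and 0.46 averaged over both sexes. Only male breeders held both read lengths, so that the covariate was estimated from their 3 and 3 libraries. The value for females therefore carries over a difference seen among males. Against the male breeders of longer reads only, it was 0.17. The direction of FGF21 with status thus depended on the treatment of read length, which cannot be told apart from status among females.

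PPARGC1A, a coactivator of mitochondrial genes that is induced in fasted liver, had 5.73, 18.5 and 24.5 CPM as lowest, median and highest level in female breeders, against 10.3, 13.7, 19.6, 49.7 and 59.1 CPM in female non-breeders. In males it had 10.3, 20.7 and 35.2 CPM in breeders, against 8.98, 22.1 and 74.4 CPM in non-breeders. The medians were close in both sexes, and the highest levels were found in 2 libraries of each non-breeder group. For PPARGC1A the log2 fold changes were -0.78 ± 0.50 in females and -0.55 ± 0.48 in males (adjusted p = 1.00 each), and -0.66 ± 0.35 averaged over both sexes (adjusted p = 0.669).

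PPARA, the nuclear receptor that senses fatty acids, had 17.3, 33.8 and 55.5 CPM in female breeders, against 31.4, 40.4, 47.2, 47.6 and 50.6 CPM in female non-breeders. In males it had 22.6, 42.4 and 53.8 CPM in breeders, against 17.0, 44.3 and 52.1 CPM in non-breeders. The groups overlapped, with log2 fold changes of -0.24 ± 0.28 in females and 0.00 ± 0.26 in males (adjusted p = 1.00 each).

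**Figure D3:**
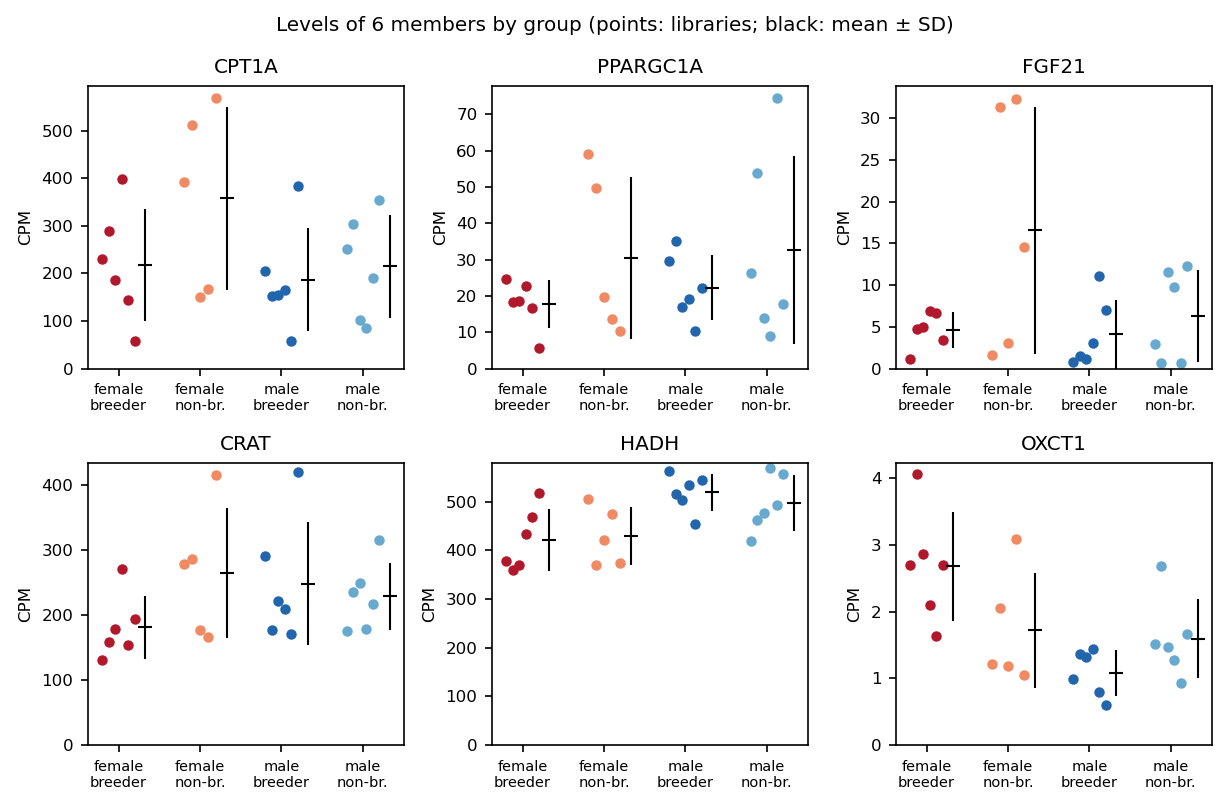
CPM of 6 genes in each library by group, with the mean and SD of the group beside the points. OXCT1 of female breeders lies above that of male breeders without overlap, and FGF21 and PPARGC1A of non-breeders reach higher than those of breeders in females.

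The sexes were compared within each status. Between female breeders and male breeders, 0 of the 29 genes passed the threshold with edgeR, where 0.0488% of all tested genes did. Without adjustment, 2 of the 29 had p under 0.05, 1 higher and 1 lower in females, against 5.89% of all tested genes, 3.29% higher and 2.6% lower. Without the 3 libraries that stood apart, 6 of the 29 genes had such a p and were lower, against 5% of all genes tested there. The log2 fold change was below 0 for 20 of the 29 genes and 45.6% of all tested genes, with medians of -0.09 and 0.02. With each library left out, 15 to 23 of the 29 were below 0, and the median was -0.0063 without male breeder 6.

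OXCT1 was 1 of the 2. Female breeders had 2.70, 4.06, 2.86, 2.10, 1.64 and 2.71 CPM, against 0.997, 1.37, 1.31, 1.43, 0.795 and 0.595 CPM in male breeders. Every female breeder lay above every male breeder, which held for 1 of the 29 genes and for 0.349% of all tested genes in either direction. The log2 fold change was 1.30 ± 0.31 (95% interval 0.67 to 1.93), with an adjusted p of 0.267 in edgeR and 0.0304 in DESeq2, which called 0.155% of the 15521 genes it tested, so that the call depended on the tool. Leaving out each library in turn gave 1.14 to 1.41. All 6 female breeders had shorter reads. Among male breeders, the 3 of shorter reads had 0.997 to 1.37 CPM and the 3 of longer reads 0.595 to 1.43 CPM. All 6 female breeders, at 1.64 CPM or more, thus lay above the 3 male breeders of the same read length. Over 8 alternatives, with read length as a covariate among them, the log2 fold change lay between 1.13 and 1.31. That covariate was estimated within male breeders alone, and the part of read length was not tested further.

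Markers of several other cell types had values mostly on the same side as OXCT1 in this comparison, but 0 of them passed the threshold, and the summed levels overlapped between the groups in every list given here. Other lists leaned the other way, with 0 of 5 erythroid, 2 of 6 adipocyte and 2 of 7 hepatocyte markers above 0. Lymphocyte and cholangiocyte markers had 5 of 7 and 5 of 6 above 0. Below 0 were 45.6% of all tested genes. All 9 of 9 markers of stellate cells and fibroblasts had log2 fold changes above 0 in female breeders against male breeders, 4 of them with an unadjusted p under 0.05. Their summed level was 117 to 316 CPM in female breeders, against 91.9 to 129.6 CPM in male breeders, with none of the 9 at 0. Of the endothelial markers, 10 of 10 were above 0, with sums of 437 to 704 CPM in female breeders, against 436 to 595 CPM in male breeders. Of the macrophage markers, 11 of 11 were above 0, 2 with an unadjusted p under 0.05, with sums of 272 to 648 CPM in female breeders, against 258 to 576 CPM in male breeders. All 6 tested neutrophil markers were above 0 as well, with sums of 23.9 to 87.9 CPM in female breeders, against 28.6 to 76.8 CPM in male breeders. Of the striated muscle markers, 6 of 8 were above 0, 2 with an unadjusted p under 0.05, with sums of 21.6 to 170 CPM in female breeders, against 23.4 to 39.1 CPM in male breeders. The highest muscle sum and the highest OXCT1 were both in female breeder 2, and without that library the log2 fold change of OXCT1 was 1.14. Female breeder 6, with the next highest muscle sum of 153 CPM, had OXCT1 near the group median of 2.70 CPM. The part of these cells in the OXCT1 difference was not tested.

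HADH was the other gene with an unadjusted p under 0.05. Its lowest, median and highest level was 359, 405 and 518 CPM in female breeders, against 454, 524 and 563 CPM in male breeders. Male breeders lay mostly above female breeders, with overlap between 454 and 518 CPM. On the log2 scale the difference was -0.30 ± 0.11 (unadjusted p = 0.0148, adjusted p = 0.732), and -0.41 without the 3 libraries that stood apart. Among non-breeders, HADH also had a log2 fold change below 0, at -0.21 ± 0.12 (adjusted p = 0.856).

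Between female non-breeders and male non-breeders, 0 of the 29 passed, where 0.0325% of all tested genes did. Without adjustment, 3 of the 29 had p under 0.05, all lower in females, against 5.15% of all tested genes in either direction and 3.25% lower. DESeq2 and limma voom called 0 of the 29 as well. The log2 fold change was below 0 for 13 of the 29 genes and for 49.5% of all tested genes, with medians of 0.05 and 0.00.

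The 3 genes were ECI1, ETFA and ETFB, with an adjusted p of 0.856 each. ECI1 had 346, 376, 386, 391 and 449 CPM in female non-breeders, against a lowest, median and highest level of 379, 475 and 609.9 CPM in male non-breeders. ETFA had 319, 331, 402, 418 and 436 CPM in female non-breeders, against 358, 459 and 568.4 CPM in male non-breeders. In ETFB the levels were 96.8, 97.9, 105, 108 and 133 CPM in female non-breeders, against 103, 127 and 158 CPM in male non-breeders. Each of the 3 genes overlapped between the sexes and had its highest level of all 23 libraries in male non-breeder 3. In log2 terms the differences were -0.30 ± 0.14, -0.30 ± 0.14 and -0.25 ± 0.12 in the order of the genes, and -0.22, -0.24 and -0.18 without male non-breeder 3. Without the 3 libraries that stood apart, 0 of the 29 genes had an unadjusted p under 0.05.

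Age was tested as a slope beside group, over animals of 2.4 to 4.1 years. Of the 29 genes, 0 passed the threshold in edgeR, the tool run for age (0% of all tested genes), and 2 had an unadjusted p under 0.05, both lower with age, against 8.02% of all tested genes in either direction and 3.41% lower. The slope was below 0 for 25 of the 29 genes and for 48.8% of all tested genes, with a median log2 change per year of -0.14 over the 29 and 0.01 over all. All 17 genes of activation and shuttle, of acyl-CoA dehydrogenases and of the hydratase to thiolase steps were among the 25. Without female breeder 6, male breeder 5 and male non-breeder 3, 20 of the 29 were below 0, with a median of -0.08. Male breeder 5 and male non-breeder 3 were the oldest animals, at 4.1 years each, so that age and these 2 libraries cannot be told apart at the upper end.

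The 2 genes were ACADS and ECHS1. ACADS had a lowest, median and highest level of 179, 239 and 273 CPM in female breeders, 196, 245 and 287 CPM in female non-breeders, 181, 272 and 325 CPM in male breeders and 154, 277 and 320.4 CPM in male non-breeders. Its slope was -0.35 ± 0.11 on the log2 scale per year (unadjusted p = 0.0039, adjusted p = 0.578). The 2 oldest animals, at 4.1 years, had 181 and 154 CPM, the lowest levels of their groups. ECHS1 had a lowest, median and highest level of 1117, 1398 and 1786 CPM in female breeders, 1229.5, 1354 and 1443 CPM in female non-breeders, 959.6, 1579 and 1703 CPM in male breeders and 955, 1436 and 1931 CPM in male non-breeders. Its slope was -0.32 ± 0.11 per year (unadjusted p = 0.00837, adjusted p = 0.578), and male breeder 5 and male non-breeder 3 again had the lowest levels of their groups.

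**Figure D4:**
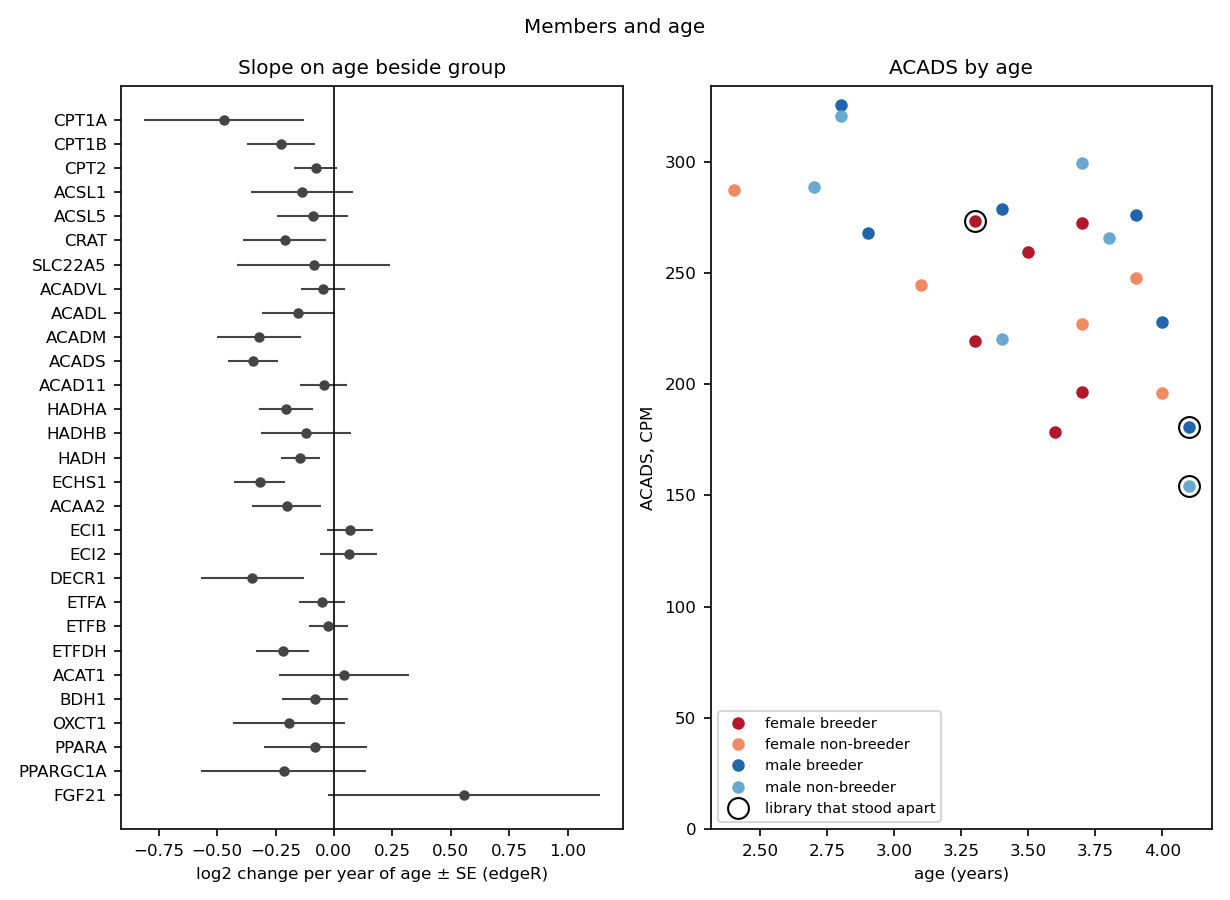
On the left, the slope of each of 29 genes on age beside group, as log2 change per year with its standard error (edgeR), and on the right, CPM of ACADS against age in years for each library by group, with the 3 libraries that stood apart circled. The slopes of 25 genes lie below 0, and the 2 animals of 4.1 years have 181 and 154 CPM of ACADS.

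The 29 genes differed widely in how much they varied among animals of one group. Over the 29, the median SD of log2 CPM within groups was 0.351, against 0.356 over all tested genes, and 14 of the 29 lay above the median of all tested genes. FGF21 had an SD of 1.58, at percentile 99.6 of all tested genes, and its highest library was 50.4-fold above its lowest. PPARGC1A followed with 0.93 (percentile 96.4), CPT1A with 0.90 (percentile 95.8), SLC22A5 with 0.71 (percentile 89.8) and ACAT1 with 0.67 (percentile 87.5). The most variable genes were thus a hormone, a coactivator, the entry enzyme of the pathway, the carnitine transporter and the ketone body thiolase.

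At the other end, ETFB had an SD of 0.17 (percentile 6.53), HADH 0.18 (percentile 7.21), CPT2 0.20 (percentile 11.4), ACADVL 0.20 (percentile 13.2) and ECI1 0.21 (percentile 15). CPT1A and CPT2, which act one after the other in the shuttle, therefore stood at opposite ends. CPT1A covered a 9.72-fold range over the 23 libraries, while CPT2 covered a 1.63-fold range between 67.9 and 111 CPM.

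Some libraries held the extremes of many genes. Male non-breeder 3 was the lowest of 23 for 9 genes, ACSL5, ACADL, ACADM, ACADS, ECHS1, ACAA2, DECR1, ETFDH and PPARA, and the highest for ECI1, ETFA and ETFB. Its neutrophil marker sum was 262 CPM and its erythroid marker sum 873 CPM, against 31.2 to 173 CPM and 209 to 379.8 CPM in the other male non-breeders. Its cholangiocyte and adipocyte marker sums, 332 and 64.0 CPM, were also the highest of all libraries. Its hepatocyte marker sum of 125141 CPM was the lowest among male non-breeders. Female breeder 5 was the highest for 6 genes and male breeder 6 for 5, while female breeder 1 was the lowest for 5. Female breeder 6 was the lowest for CPT1A, ACSL1 and PPARGC1A and the highest for ACAT1. The part of other cells in these levels was not tested.

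Whether genes that work together also varied together was examined for 9 fixed relations, on log2 CPM minus the group mean over 23 libraries, with two-sided permutation tests adjusted over the 9. HADHA and HADHB varied together most closely, with Pearson r = 0.85 (p = 1e-05, the smallest the permutations can give, adjusted p = 9e-05) and Spearman rho = 0.79 (p = 3e-05, adjusted p = 0.00027). Without the 2 libraries farthest out on HADHA, r was 0.82, and it was 0.83 within the shorter and 0.88 within the longer reads. The spans of these genes overlap in the annotation, and the part of that overlap in this value was not tested.

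ACAT1 and BDH1 had r = 0.62 (p = 0.00175, adjusted p = 0.00663) and rho = 0.56 (p = 0.00731, adjusted p = 0.0329), with r = 0.49 without the 2 farthest libraries and 0.79 and 0.48 within the shorter and the longer reads. ETFA and ETFB, which form one protein, had r = 0.60 (p = 0.00221, adjusted p = 0.00663) and rho = 0.50 (p = 0.0154, adjusted p = 0.0346). Without the 2 farthest libraries r was 0.39, and within the shorter and the longer reads it was 0.52 and 0.68. These 3 pairs passed the threshold by both coefficients.

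PPARA and ACADM had r = 0.48 (p = 0.0221, adjusted p = 0.0497) but rho = 0.23 (p = 0.301, adjusted p = 0.387), and r was 0.44 within the shorter and 0.61 within the longer reads. Without the 2 farthest libraries r was 0.35, and without the 3 libraries that stood apart it was -0.01, so that this relation rested on those libraries. ACADM and HADHA had r = 0.36 (p = 0.0953, adjusted p = 0.143) and rho = 0.51 (p = 0.0147, adjusted p = 0.0346), with r = 0.44 without the 2 farthest libraries and 0.15 and 0.45 within the shorter and the longer reads. PPARA and CPT1A had r = 0.39 (p = 0.066, adjusted p = 0.119) and rho = 0.33 (p = 0.125, adjusted p = 0.225), with r = 0.38 without the 2 farthest libraries, 0.31 and 0.45 within the shorter and the longer reads, and 0.031 once the 3 libraries that stood apart were left out. The remaining relations, CPT1A with CPT2, CPT1A with FGF21 and CPT1B with the striated muscle markers, had r of -0.01, -0.12 and -0.19 and rho of -0.05, -0.04 and -0.28, with p of at least 0.192 and adjusted p of at least 0.288. Without the 2 farthest libraries their r was -0.21, -0.02 and -0.29, within the shorter reads -0.38, 0.08 and -0.16, and within the longer reads 0.24, -0.17 and -0.42.

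**Figure D5:**
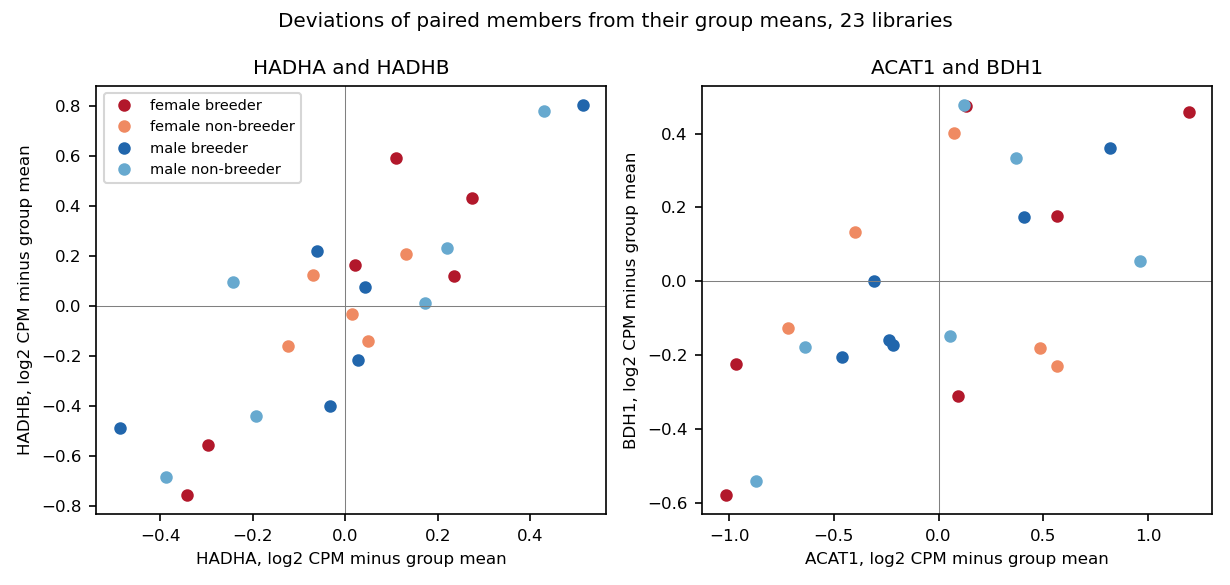
Each point is a library, placed by its log2 CPM minus the mean of its group for HADHA and HADHB on the left and for ACAT1 and BDH1 on the right. Libraries high in one gene of a pair tended to be high in the other, with r of 0.85 and 0.62 over 23 libraries.

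Genes around the pathway were described with 7 further lists of 92 genes, of which 81 were tested. They cover fatty acid uptake and binding, the malonyl-CoA brake on the shuttle, carnitine synthesis, other mitochondrial acyl-CoA enzymes, pyruvate dehydrogenase and its kinases, PPARA targets outside the 31 genes, and coactivators and nuclear receptors. Of the 81 genes, 0 passed the threshold in any comparison by edgeR, the tool run for these lists. At an unadjusted p under 0.05 stood 3 of the 81 for status in females, 4 for status in males, 2 averaged over both sexes, 1 for the difference between the sexes, 3 between breeders of either sex, 4 between non-breeders of either sex and 7 for age. The shares of all tested genes at that level are those given above for each comparison.

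The 18 tested PPARA targets had log2 fold changes below 0 for 15 genes in females, with a median of -0.23. In males these were 7 genes, with a median of 0.04. Of all tested genes, 47.9% and 53.4% were below 0 in females and males, with medians of 0.01 and -0.02. Read length and status cannot be told apart among females for these targets either. The 14 other acyl-CoA enzymes had medians of 0.07 and 0.01, and the 8 genes of the malonyl-CoA brake 0.05 and 0.12. For age, 64 of the 81 genes had a slope below 0, 79.0% against 48.8% of all tested genes, and 0 passed the threshold.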

How the data were processed

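Liver RNA of 23 animals was analysed. The authors sequenced poly(A) libraries of a kit without strand marking, single-end. Reads were aligned by STAR 2.4.1d, those with several placements were dropped, and HTSeq assigned the rest to genes of a transcript catalogue of the species (tools per the submitters' processing notes). What was deposited are unnormalized counts. Groups come from the labels. Which animals share a litter is not given, and all were treated as independent.

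Counts were fitted in edgeR 4.0.16 (R 4.3.3): filterByExpr with minimum count 10 and minimum total 15, TMM scaling, 1 fit of all 23 libraries with 1 mean per group, robust quasi-likelihood F-test, two-sided, Benjamini-Hochberg adjustment over 12306 genes, threshold 0.05. SE was obtained by dividing the log2 fold change by the root of F, and intervals are at 95%. CPM use the TMM-scaled totals, and log2 CPM a prior count of 2. Correlations used 100000 permutations, and 2 planned relations with PDK4 were not run. The test was tried on simulated data.

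The genes, lists and tests were chosen with earlier results of these data known. Named with values were genes past the threshold, genes with unadjusted p under 0.05 (where none, the 2 of smallest p), and CPT1A, CPT1B, ACADL, HADHA, HADHB, BDH1, OXCT1, PPARA, PPARGC1A and FGF21. SLC22A5, ACAT1 and CPT2 are named for values seen afterwards.

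Alternatives were relative log expression scaling, no filter, DESeq2 1.42.0, limma 3.58.1 voom with quality weights, a threshold of 0.01, age or read length as covariate, only the compared groups, omission of 3 libraries that stood apart, and omission of each library. Names were matched to RefSeq of another assembly, so no coordinates are given. There, the spans of 10 of the 31 genes overlap that of another protein-coding gene, namely CPT2, CRAT, ACAD11, HADHA, HADHB, ECI1, ETFDH, ACAT1, PPARA and FGF21. Exons were not compared, and reads of any shared exon cannot be told apart by strand.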

Additional observations from a re-analysis of the deposited data

Results flagged for a closer look

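Among 116 sets of values (29 genes in 4 groups), 5 held a lowest library with a wide gap to the rest of its group by Dixon's criterion, and chance marks about 1 in 20 such sets. Male non-breeder 3 was such a library for ACADL at 59.6 CPM (other male non-breeders 118 to 164 CPM), for ACADM at 30.3 CPM (67.04 to 95.5 CPM) and for PPARA at 17.0 CPM (40.7 to 52.1 CPM). PPARGC1A stood at 5.73 CPM in female breeder 6, against 16.6 to 24.5 CPM in the other female breeders. ACADVL stood at 203 CPM in female non-breeder 4, against 258 to 269 CPM in the other female non-breeders.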

How the results depend on the processing

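For 36 results, 854 alternative values were computed, of which 844 kept their direction and side of the threshold or stayed within the spread. With read length as a covariate, the log2 fold change of FGF21 turned to 0.77 for status in females, 0.16 in males and 0.46 averaged over both sexes, and with male breeders of longer reads only to 0.17 in males. The covariate was estimated within male breeders alone, the only group with both read lengths. DESeq2 called 1 of the 29 genes between female breeders and male breeders, OXCT1 at a log2 fold change of 1.30 (adjusted p = 0.0304), as 1 of 24 calls among 15521 genes, where edgeR called 0 of the 29. OXCT1's adjusted p over its alternatives reached from 0.0304 to 1.00. Without the 3 libraries that stood apart, r was 0.92 for HADHA and HADHB, 0.031 for PPARA and CPT1A, -0.0082 for PPARA and ACADM, and -0.42 for the muscle markers and CPT1B. The causes of these changes were not tested. The median log2 fold change with each library left out in turn lay between -0.19 and -0.06 for status in females and between -0.06 and 0.10 in males, where 0 of the genes were called each time. The median for male breeders of longer reads only, 0.06, was added after seeing the data. No paired analysis was possible because replicate numbers follow the order of accessions and the labels pair no animals. Depth limits OXCT1 and FGF21, with as few as 10 and 9 counts in a library, and SLC25A20, with at most 2.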
